A study of Mus musculus with 20 samples.

Results

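The 44 genes described here encode the machinery that copies DNA in S phase: the factors that license origins, the MCM helicase and its activators, the GINS complex, the replicative polymerases and primase, the sliding clamp and its loader, single-strand binding proteins, enzymes that join and clean new strands, and enzymes that supply nucleotides. They were chosen by name, as a list of S phase genes, with earlier results of these data known. All 44 are among the 46318 genes counted, and all 44 are among the 13307 genes with enough reads to be tested. The cells were macrophages grown from the marrow of female C57BL/6 mice. Marrow was cultured with 20 ng/mL of a recombinant murine growth factor (spelled M-DSF in the labels), and the macrophages were reseeded and exposed for 24 h, in 4 treatment groups of 5 biological replicates. Controls received DMSO, the solvent. A second group received 50 µM of DSHN, which the labels describe as activating NR0B2, a repressor of the cholesterol-sensing receptor LXR. The others received 1 µM of GW3965, which activates LXR, or the same amounts of DSHN and GW3965 together. The labels do not say whether the biological replicates came from separate mice or separate wells, so p-values measure the spread between these samples only.

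Before S phase, the origin recognition complex with Cdc6 and Cdt1 loads the MCM helicase onto chromatin. Cdc45 and GINS then turn the helicase on, polymerases alpha, delta and epsilon copy the strands behind it, and PCNA, loaded by RFC, holds the polymerases to the template. Many of these genes are switched on together by E2F transcription factors as cells pass from G1 into S phase, and macrophages grown in M-CSF are known to keep dividing for a time in culture.

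Levels below are CPM, read counts adjusted for the size of each library (its total and TMM factor), and CPM per kb of exon where genes are compared with each other. Effects are log2 fold changes with their standard errors (SE), and a gene is said to have risen or fallen where the edgeR quasi-likelihood test gave an adjusted p under 0.05 over all genes tested. The libraries held 16855029 to 23796561 counts. All 9 macrophage markers had counts, with sums of 17004 to 20990 CPM over the 20 libraries. Lyz2 made up most of each sum, and with every treatment some of the 9 fell and others rose against DMSO. Summed markers of neutrophils reached at most 1.35 CPM, of dendritic cells 1.77 CPM, of T and NK cells 0.709 CPM, of erythroid cells 0.161 CPM and of mast cells 0.0576 CPM. B cell markers reached 8.11 CPM, nearly all of it Cd79b, and progenitor markers 7.56 CPM. Of the 4 stromal markers, all with counts, Col1a1 stood at 1327 CPM ± 127 (SD, n = 5) with DMSO. Stromal sums ranged from 1389 to 1763 CPM in the DMSO group, from 1498 to 1934 under DSHN, from 1603 to 2123 under GW3965 and from 1246 to 1504 in the combination. They thus moved with the treatments, and their part in the results was not tested.

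Promoter sequences show a feature of these genes that the list did not use. A RefSeq table of windows from 250 bases before to 50 bases after annotated starts (GRCm38.p6) held a window for 37 of the 44 genes. Prim2, Rfc2, Gins4, Gins2, Mcm4, Gins1 and Pole had none there. An E2F letter match (TTCCCGC or TTGGCGC, either strand) was found in windows of 21 of the 37 genes (56.8%), against 2105 of 27025 genes in the table (7.79%). Counting only the 100 bases before the start, the shares were 18.9% and 3.06%. The letters CCAAT were present for 59.5% of the 37 genes and 41.1% of the table's genes. TTTGAA, the CHR element of many mitotic genes, was present for 13.5% and 20.2%. The genes of the table were not limited to those tested here, whereas all 37 were tested. A share over tested genes alone was not taken. A CCAAT can share letters with an E2F match on the other strand. A match is a description of sequence and not a binding site. The 6 windows below belong to genes followed in every library, taken in the order of their adjusted p with GW3965. They are written 5′ to 3′ along the gene's strand, with E2F matches in capitals.
Mcm5 lies at chr8:75109259-75109558 (plus strand) with matches starting at −164 and −149 from the annotated start.
Mcm5: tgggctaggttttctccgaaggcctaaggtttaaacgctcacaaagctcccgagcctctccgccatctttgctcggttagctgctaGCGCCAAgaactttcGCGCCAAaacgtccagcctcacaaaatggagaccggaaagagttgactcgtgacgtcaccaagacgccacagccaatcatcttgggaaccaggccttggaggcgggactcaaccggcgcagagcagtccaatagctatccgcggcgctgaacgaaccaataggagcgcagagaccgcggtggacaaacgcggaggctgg
Pola1 lies at chrX:93632106-93632405 (minus strand) and holds 4 matches, starting at −169, −138, −121 and +15.
Pola1: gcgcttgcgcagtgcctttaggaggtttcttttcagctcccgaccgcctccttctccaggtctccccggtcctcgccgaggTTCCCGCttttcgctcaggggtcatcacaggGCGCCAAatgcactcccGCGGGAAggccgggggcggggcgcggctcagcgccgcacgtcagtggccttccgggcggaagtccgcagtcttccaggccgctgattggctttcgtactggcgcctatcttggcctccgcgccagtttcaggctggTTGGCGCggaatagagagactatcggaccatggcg
Cdc6 lies at chr11:98907901-98908200 (plus strand) with a match starting at −138.
Cdc6: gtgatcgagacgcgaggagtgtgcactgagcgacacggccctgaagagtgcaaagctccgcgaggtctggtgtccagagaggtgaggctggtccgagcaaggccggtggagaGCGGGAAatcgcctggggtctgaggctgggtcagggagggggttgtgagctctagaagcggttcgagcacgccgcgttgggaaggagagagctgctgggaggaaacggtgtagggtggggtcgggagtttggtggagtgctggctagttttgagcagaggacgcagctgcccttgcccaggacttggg
Pcna lies at chr2:132253131-132253430 (minus strand), Dut at chr2:125247265-125247564 (plus strand) and Orc1 at chr4:108579204-108579503 (plus strand), and these windows hold no match to those letters.
Pcna: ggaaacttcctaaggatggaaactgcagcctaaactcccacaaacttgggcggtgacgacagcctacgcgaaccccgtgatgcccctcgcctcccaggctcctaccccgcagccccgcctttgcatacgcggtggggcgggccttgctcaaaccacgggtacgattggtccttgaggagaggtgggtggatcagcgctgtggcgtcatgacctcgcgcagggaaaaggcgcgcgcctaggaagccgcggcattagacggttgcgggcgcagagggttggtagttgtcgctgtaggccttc
Dut: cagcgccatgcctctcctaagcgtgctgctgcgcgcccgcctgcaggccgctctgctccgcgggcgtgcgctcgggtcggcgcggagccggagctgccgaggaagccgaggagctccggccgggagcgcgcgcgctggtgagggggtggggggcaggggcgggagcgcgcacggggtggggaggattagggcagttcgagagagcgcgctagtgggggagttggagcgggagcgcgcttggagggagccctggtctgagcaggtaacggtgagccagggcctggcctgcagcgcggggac
Orc1: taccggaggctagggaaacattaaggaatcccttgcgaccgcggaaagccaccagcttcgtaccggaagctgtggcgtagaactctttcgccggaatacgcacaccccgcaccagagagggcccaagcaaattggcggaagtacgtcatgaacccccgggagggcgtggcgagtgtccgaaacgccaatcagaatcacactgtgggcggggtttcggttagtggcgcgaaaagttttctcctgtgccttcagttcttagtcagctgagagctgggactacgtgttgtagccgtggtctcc

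RNA of all 44 genes was detected in the macrophage cultures given DMSO. Per kb of exon, Pcna, the clamp, was the highest at 265 CPM per kb ± 16.3 (SD, n = 5) with DMSO. Rrm1 (94.2), the large subunit of ribonucleotide reductase, Rrm2 (77.3), its small subunit, and Mcm6 (71.5) followed. The lowest were Orc1 (2.12 CPM per kb), Ung (4.29), Gins3 (4.45), Tyms (5.29) and Cdc6 (5.62). The value of Tyms comes from 39.4 CPM over an exon sum of 7450 bases. Subunits of the MCM ring, which assemble in equal numbers, ranged from 27.7 CPM per kb (Mcm2) to 71.5 (Mcm6), with Mcm3 at 50.3, Mcm5 at 49.9, Mcm4 at 39.5 and Mcm7 at 38.7. Mcm3 and Mcm5 did not differ by more than their SDs of 3.47 and 3.11, and the same holds for Mcm4 and Mcm7 (3.78 and 1.84). Summed over the 44 genes, levels lay between 3337 and 3787 CPM in DMSO libraries, 2790 and 3106 under DSHN, 2247 and 2746 under GW3965, and 2504 and 2850 in the combination. No library of any treated group reached the lowest DMSO library, and the combination range overlapped those of both single treatments.

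**Figure D1:**
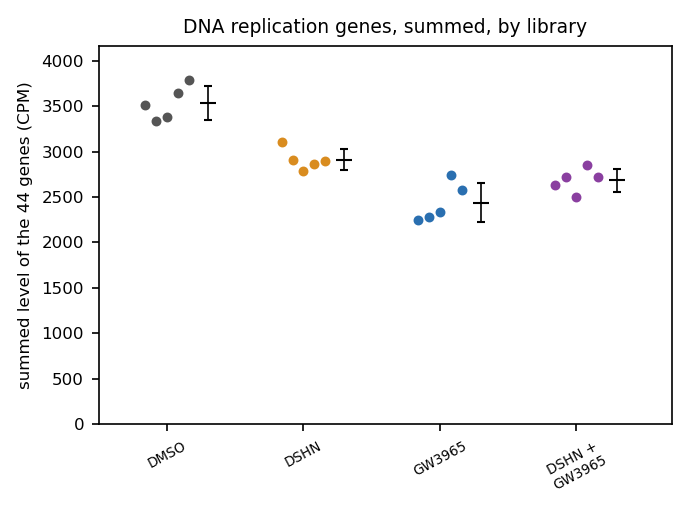
Summed level of the 44 DNA replication genes in each library (CPM, vertical axis from 0) for the 4 treatments. Points are the 5 libraries in replicate order and bars are the mean ± SD. The treated groups all lie below the DMSO range of 3337 to 3787 CPM.

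GW3965 alone lowered nearly the whole list. Of the 44 genes 42 fell and 0 rose against DMSO, with a median log2 fold change of −0.56, where the median over all genes tested was 0.008. Over all genes 23% were called lower and 23.6% higher. The genes that did not pass the test were Rfc2 (−0.11, SE 0.05) and Gins4 (−0.08, SE 0.05). DESeq2 and limma voom also called 42 lower and 0 higher, and 0 rose at an unadjusted p under 0.05. In bulk RNA, fewer cells in S phase and less replication RNA per cell cannot be told apart.

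DSHN alone lowered fewer of the genes and by less. Of the 44 genes 34 fell and 0 rose, with a median of −0.27, where 14.8% of all genes were called lower and 14.1% higher and the median over all genes was 0.0018. DESeq2 and limma voom gave the same counts of 34 and 0, and 0 rose at an unadjusted p under 0.05 in edgeR. The 10 that did not pass were Rfc1, Rfc2, Gins1, Gins3, Gins4, Orc6, Tk1, Pold3, Prim2 and Rpa3, with values from −0.24 to 0.02. Of the 34, Gins2, Pola1, Pole2, Prim1, Rfc3 and Tyms each lost the call when some single library was left out (DMSO replicates 1, 2, 4 and 5 and DSHN replicates 1 to 5 each ended at least 1 of them), with values then from −0.31 to −0.12. Compared directly, 35 of the 44 were lower with GW3965 than with DSHN and 0 were higher (0 also with DESeq2, limma voom and at an unadjusted p under 0.05), with a median of −0.31. Over all genes that comparison called 8.82% lower and 8.3% higher. Scaling by total counts in place of TMM left the list's counts at 37 lower and 0 higher there, and at 43 and 0 for GW3965 against DMSO. It moved the calls over all genes from 3058 lower and 3136 higher to 4000 and 2267 for GW3965 against DMSO, and from 1174 and 1104 to 1641 and 768 for GW3965 against DSHN.

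With both compounds the list split. Against DMSO 29 fell and 3 rose (Gins4, Rfc2 and Rpa3), with a median of −0.36, beside 32.9% of all genes called lower and 31.9% higher. The combination libraries also had a trend with exon length: the slope of log2 CPM on log2 exon length was −0.124 to −0.0943 in the 5 combination libraries and 0.00566 to 0.063 in the other 15. After a correction for exon length in each library, 35 fell and 1 (Tyms) rose, with a median of −0.40 and a background of 28.2% lower and 30.2% higher. Gins4, Rfc2 and Rpa3 then had values of −0.05, −0.13 and −0.14, of which Rfc2 passed the test as lower. Tyms, whose exon sum is 7450 bases, had −0.04 without the correction and 0.19 with it. With exon length and genomic span both corrected for, 36 fell and 0 rose, a setting for which no share over all genes is given here. The rise of Rfc2 and the falls of Pold3 and Rpa2 against DMSO were also lost when some single library was left out (Rfc2 in 6 such fits, Pold3 in 6 and Rpa2 in 5). The trend and the treatment cannot be told apart by library, since all 5 combination libraries show it.

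Adding DSHN to GW3965 left the list higher than with GW3965 alone. Of the 44 genes 27 rose and 3 fell (Pole, Pola1 and Rfc1), with a median of 0.21, where 28.3% of all genes were called higher and 29.5% lower. With the length correction 21 rose and 2 (Pole and Pola1) fell, with a median of 0.15 and a background of 23.8% higher and 23.5% lower. Corrected for exon length and genomic span together, 18 rose and 1 (Pole) fell, beside 23.4% and 23.1% of all genes. Of the 27 genes, 18 kept their call under the first correction and 14 under the second. Against DSHN alone the combination had 19 genes lower and 12 higher (median −0.12), beside 29.5% and 28.6% of all genes. The count of 12 became 7 without DSHN replicate 3 and 6 without the combination's replicate 4. With the length correction 19 were lower and 1 was higher (median −0.13), beside 22.9% and 23.5% of all genes. Of the 19 called lower without the correction, 15 kept the call with it and 14 with span corrected for too. When a library was left out, 14 to 19 were called lower.

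The interaction is the DSHN effect in the presence of GW3965 minus the DSHN effect in its absence. It was called positive for 41 of the 44 genes and negative for 2 (Pole and Pola1), with a median of 0.52, where 23.7% of all genes were called higher and 26.5% lower. After the length correction it was called positive for 39 and negative for 0 (0 at an unadjusted p under 0.05), with a median of 0.42 and a background of 21.5% and 22.6%. The call for Pola1 was also lost with total counts and without DSHN replicate 5 or combination replicate 3. Scaling by total counts gave calls of 41 positive and 1 negative, and moved the calls over all genes from 3154 higher and 3527 lower to 4069 and 2853. Side by side, DSHN lowered 34 of the genes and raised 0 in the absence of GW3965, and in its presence raised 27, lowered 3 and left 14 without a call. The comparisons against DMSO share their 5 control libraries, so their values stand side by side and are not independent.

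**Figure D2:**
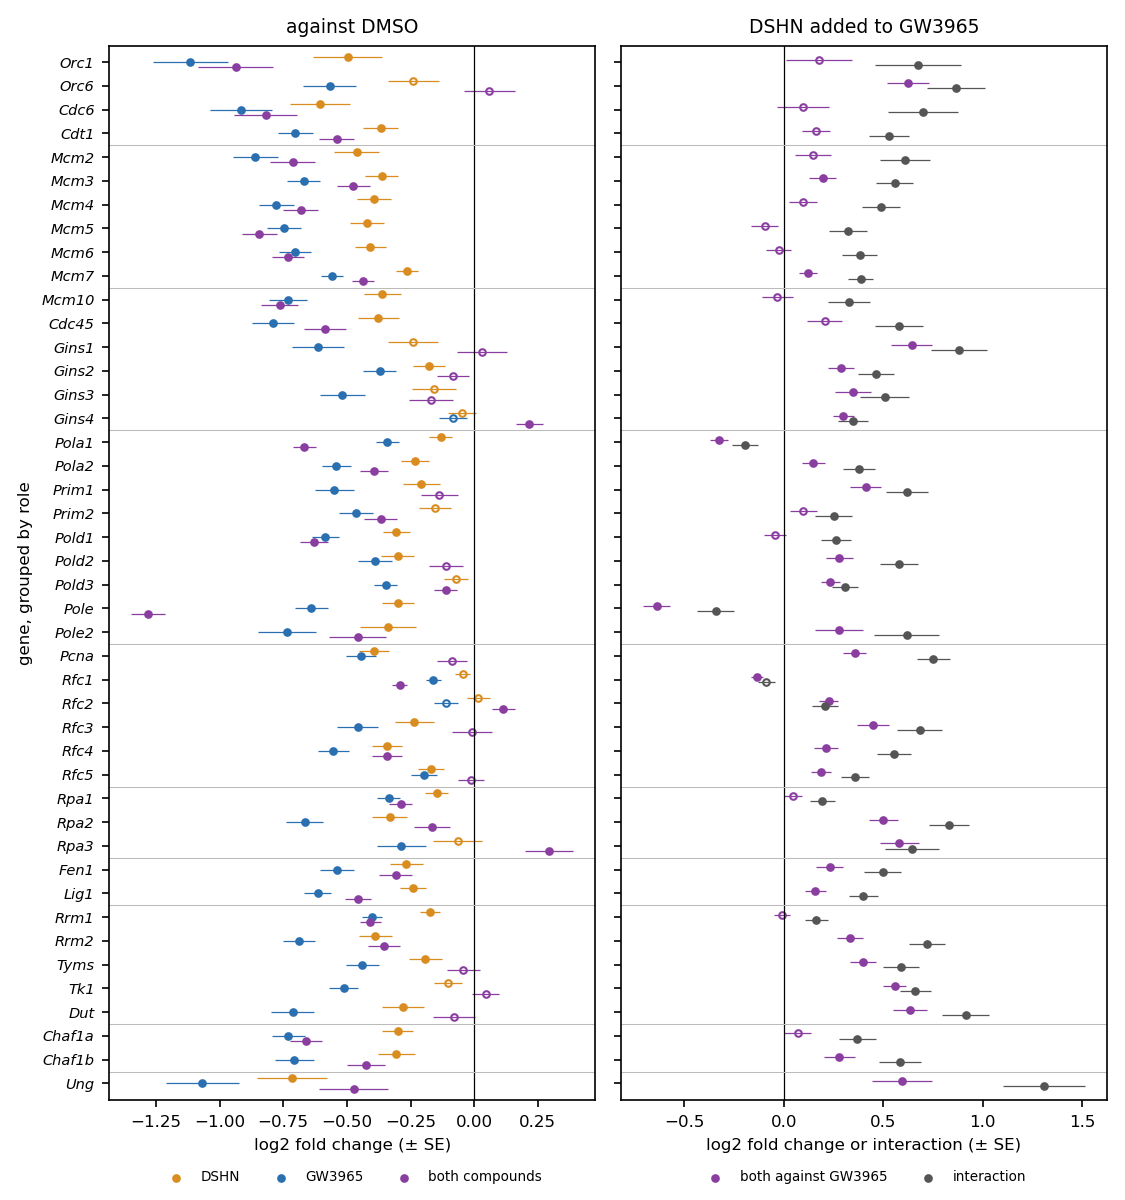
Log2 fold change ± SE of each of the 44 genes, grouped by role from licensing (top) to uracil removal (bottom). The left panel shows DSHN, GW3965 and both compounds against DMSO, and the right panel both compounds against GW3965 and the interaction. Filled points passed edgeR's adjusted p of 0.05. GW3965 values lie left of 0 for all 44 genes, and interaction values lie right of 0 except for Pola1, Pole and Rfc1.

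Among the 4 licensing genes, all fell with GW3965 (median −0.81) and 3 with DSHN (median −0.43). Orc1, the largest subunit of the origin recognition complex (chr4:108436651-108472030 in GRCm39), had 6.53, 6.30, 5.90, 5.89 and 7.36 CPM with DMSO, 5.39, 4.63, 3.50, 4.25 and 4.79 with DSHN, 2.02, 2.87, 2.91, 3.60 and 3.21 with GW3965, and 3.00, 2.22, 3.06, 4.71 and 3.74 with both. Every treated library was below every DMSO library. It fell by 0.50 on the log2 scale with DSHN (SE 0.14, edgeR adjusted p = 0.00726), by 1.11 with GW3965 (SE 0.15, edgeR adjusted p = 7.4e-07) and by 0.94 with both (SE 0.15, edgeR adjusted p = 3.81e-06). Orc1 was the rarest member, and 8.59% of its exon bases overlap another gene, where the authors' counting without a strand option leaves reads unassigned or shared.

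Cdc6, the ATPase that helps to load the helicase (chr11:98798627-98814768), gave 30.1, 24.1, 23.9, 30.0 and 33.0 CPM with DMSO, 21.2, 19.1, 17.1, 16.7 and 18.2 with DSHN, 11.2, 12.6, 13.0, 21.2 and 16.1 with GW3965, and 15.2, 16.3, 13.3, 18.3 and 16.8 with both. The treated groups did not overlap DMSO, while GW3965 replicate 4 reached the highest DSHN library. The log2 fold changes were −0.61 with DSHN (SE 0.12, edgeR adjusted p = 0.000345), −0.91 with GW3965 (SE 0.12, edgeR adjusted p = 8.27e-07) and −0.82 with both (SE 0.12), and the interaction was 0.70 (SE 0.18, edgeR adjusted p = 0.00178). Cdt1, the partner of Cdc6 in loading, fell by 0.37 with DSHN and by 0.70 with GW3965. Orc6, the small origin subunit, fell with GW3965 (−0.57, SE 0.10) and had a value of −0.24 with DSHN that did not pass the test. In the combination Orc6 was 0.63 higher than with GW3965 alone (0.43 with the length correction).

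All 6 MCM ring genes fell with DSHN (median −0.40), with GW3965 (−0.73) and with both (−0.70). Mcm5 (chr8:75836096-75855067) had 172, 162, 168, 185 and 187 CPM with DMSO, 145, 129.7, 118, 129.6 and 129.9 with DSHN, 95.5, 91.4, 93.7, 122 and 116 with GW3965, and 97.9, 99.7, 88.1, 99.6 and 101 with both. No treated library reached a DMSO library, and the combination lay within or below the GW3965 range. The changes were −0.42 with DSHN (SE 0.07, edgeR adjusted p = 2.75e-05), −0.75 with GW3965 (SE 0.07, edgeR adjusted p = 1.12e-09) and −0.84 with both (SE 0.07, edgeR adjusted p = 4.28e-11). Mcm2 moved most in the ring, by −0.46 with DSHN and −0.86 with GW3965, and Mcm7 least, by −0.26 and −0.56. Mcm3, Mcm4 and Mcm6 lay between, at −0.67, −0.78 and −0.70 with GW3965. When DSHN was added to GW3965, Mcm3 (0.20) and Mcm7 (0.12) rose, both also with the length correction but neither when span was corrected for too (0.14 and 0.07). Mcm7 also lost the call without GW3965 replicate 2 (0.10). Mcm2, Mcm4, Mcm5 and Mcm6 did not pass the test there with or without that correction.

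Of the 6 helicase activators 3 fell with DSHN and 5 with GW3965, and the GINS subunits differed among themselves. Mcm10, which helps to activate the loaded helicase, and Cdc45, a part of the active helicase, fell with DSHN by 0.36 and 0.38 and with GW3965 by 0.73 and 0.79. Gins2 fell with DSHN by 0.18 and with GW3965 by 0.37, and Gins3 fell with GW3965 by 0.52. GINS is a ring of 4 subunits, and Gins1 and Gins4 gave the widest contrast. Gins1 (chr2:150751482-150773200) had 13.8, 14.2, 12.3, 15.0 and 14.6 CPM with DMSO, 14.6, 11.5, 12.0, 9.29 and 11.2 with DSHN, 7.36, 8.45, 9.67, 11.0 and 8.83 with GW3965, and 13.8, 14.4, 12.8, 16.5 and 13.7 with both. All GW3965 libraries were below all DMSO and combination libraries, which overlapped each other. Gins1 fell by 0.61 with GW3965 (SE 0.10, edgeR adjusted p = 1.85e-05), and was 0.64 higher with both than with GW3965 alone (SE 0.10, edgeR adjusted p = 6.92e-06; 0.44 with the length correction). Another gene overlaps 24.6% of its exon bases.

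Gins4 (chr8:23716626-23727684) had 36.5, 37.8, 37.7, 35.0 and 39.8 CPM with DMSO, 38.3, 34.1, 38.1, 36.9 and 33.0 with DSHN, 30.7, 35.0, 36.3, 37.7 and 36.3 with GW3965, and 41.5, 44.3, 40.9, 44.9 and 45.6 with both. The first 3 groups overlapped, and all combination libraries were above all others. Gins4 was not called with DSHN (−0.05, SE 0.05, edgeR adjusted p = 0.546) or GW3965 (−0.08, SE 0.05, edgeR adjusted p = 0.217), and rose with both against DMSO (0.22, SE 0.05, edgeR adjusted p = 0.000922). Its exons sum to 1364 bases, and with the length correction that value was −0.05 (edgeR adjusted p = 0.354).

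The polymerase and primase genes fell together with GW3965, 9 of 9, and 7 of 9 fell with DSHN. Pole, the catalytic subunit of polymerase epsilon, which copies the leading strand (chr5:110434185-110485319), had 84.0, 77.7, 70.9, 71.1 and 80.7 CPM with DMSO, 59.7, 57.7, 58.1, 67.7 and 69.8 with DSHN, 50.0, 48.4, 42.6, 54.5 and 51.1 with GW3965, and 32.8, 33.6, 28.2, 32.1 and 31.5 with both. The 4 groups formed 4 separate ranges, with the combination lowest. Pole fell by 0.30 with DSHN (SE 0.06, edgeR adjusted p = 0.000693), by 0.64 with GW3965 (SE 0.06, edgeR adjusted p = 6.55e-09) and by 1.28 with both (SE 0.07, edgeR adjusted p = 1.7e-14). Its interaction was −0.34 (SE 0.09, edgeR adjusted p = 0.00334). With an exon length of 7129 bases it was exposed to the length trend: corrected, the change with both was −1.06 and the interaction was −0.15 (edgeR adjusted p = 0.15).

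Pola1, the catalytic subunit of polymerase alpha, which starts each new strand with primase (chrX:92348372-92675993), had 103, 107, 97.9, 101 and 107 CPM with DMSO, 90.1, 89.6, 89.6, 100.2 and 102 with DSHN, 79.5, 78.3, 78.9, 87.0 and 83.3 with GW3965, and 65.6, 64.8, 58.6, 67.8 and 68.1 with both. DSHN overlapped DMSO, while GW3965 lay below DSHN and the combination below GW3965. The changes were −0.13 with DSHN (SE 0.05, edgeR adjusted p = 0.0284), −0.34 with GW3965 (SE 0.05, edgeR adjusted p = 7.83e-07) and −0.67 with both (SE 0.05, edgeR adjusted p = 2.66e-12). The interaction of −0.19 (SE 0.07, edgeR adjusted p = 0.0146) became −0.05 (edgeR adjusted p = 0.525) with the length correction, and 0.18 when genomic span was also corrected for. Pola2, its regulatory subunit, and the primase subunits Prim1 and Prim2 fell with GW3965 by 0.54, 0.55 and 0.46. Against GW3965 alone the combination was higher in Prim1 (0.41, and 0.20 with the length correction) and Pola2 (0.15, and 0.21), where Pola2 lost the call without combination replicate 5 or GW3965 replicate 1, 2 or 3 (0.13 to 0.14).

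In polymerase delta, which copies the lagging strand, Pold1, the catalytic subunit, fell by 0.31 with DSHN, 0.59 with GW3965 and 0.63 with both. The accessory subunits Pold2 and Pold3 fell with GW3965 by 0.39 and 0.35. Pold2 fell with DSHN (−0.30, SE 0.07), and Pold3 had −0.07 there and did not pass the test. Pole2, the second subunit of polymerase epsilon, fell by 0.34 with DSHN and by 0.74 with GW3965, and unlike Pole its interaction was positive (0.62, SE 0.16; 0.52 with the length correction, called in both cases).

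Pcna, the clamp (chr2:132091206-132095100), had the highest level of the 44 per kb with DMSO. It had 323, 309.6, 327, 353 and 358 CPM with DMSO, 282, 249, 252, 239 and 247 with DSHN, 221, 225, 234, 283 and 264 with GW3965, and 309.6, 308, 291, 339.9 and 323 with both. Single treatments lay below DMSO and overlapped each other, and the combination overlapped DMSO. Pcna fell by 0.39 with DSHN (SE 0.06, edgeR adjusted p = 1.23e-05) and by 0.44 with GW3965 (SE 0.06, edgeR adjusted p = 7.23e-07), and with both it had −0.09 (SE 0.06, edgeR adjusted p = 0.192). Its interaction of 0.75 (SE 0.08, edgeR adjusted p = 7.28e-08) was 0.52 with the length correction, under which Pcna with both was lower than with DMSO (−0.38, edgeR adjusted p = 8.3e-07) and had 0.10 against GW3965 alone (edgeR adjusted p = 0.125). A pseudogene named after Pcna could share its reads.

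RFC opens the clamp and loads it onto DNA. Rfc3 and Rfc4 fell with DSHN by 0.23 and 0.34 and with GW3965 by 0.46 and 0.55, and Rfc5 by 0.17 and 0.20. Rfc1, the large subunit, fell with GW3965 by 0.16 and had −0.05 with DSHN, and Rfc2 was not called with either compound (0.02 with DSHN, which changed sign with total counts or the length correction, and −0.11 with GW3965). Against GW3965 alone, Rfc1 had −0.13 with both (SE 0.03), and with the length correction 0.09, called as higher.

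The RPA complex coats single-stranded DNA. Rpa1 and Rpa2 fell with DSHN by 0.15 and 0.33 and with GW3965 by 0.34 and 0.67. Rpa3, the smallest subunit, with the shortest exon sum of the list (638 bases, chr6:8255936-8259141), had 12.4, 10.6, 11.5, 12.6 and 12.3 CPM with DMSO, 12.2, 11.3, 11.6, 11.1 and 10.3 with DSHN, 7.81, 8.55, 9.62, 9.82 and 12.7 with GW3965, and 12.8, 14.5, 13.4, 17.1 and 15.0 with both. GW3965 replicate 5 was above every DMSO library and the other 4 were below them all, and every combination library was above all others. Rpa3 fell with GW3965 (−0.29, SE 0.10, edgeR adjusted p = 0.0185) and rose with both against DMSO (0.30, SE 0.09, edgeR adjusted p = 0.00774). The length correction turned the latter to −0.14 (edgeR adjusted p = 0.153), while the rise against GW3965 alone went from 0.58 (SE 0.10, edgeR adjusted p = 1.21e-05) to 0.22 (edgeR adjusted p = 0.041) and, with span corrected for too, to 0.19 (edgeR adjusted p = 0.08), where it was no longer called. The fall with GW3965 lost its call without GW3965 replicate 1 (−0.23) or 2 (−0.25).

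Fen1, which removes the flaps of Okazaki fragments, and Lig1, which seals them, fell with DSHN by 0.27 and 0.24, with GW3965 by 0.54 and 0.61 and with both by 0.31 and 0.46. Both were higher with both compounds than with GW3965 alone, by 0.23 and 0.16 (0.16 and 0.18 with the length correction). With span corrected for too, Fen1 had 0.11 and was no longer called. The subunits of chromatin assembly factor 1, which places histones on new DNA, fell likewise. Chaf1a and Chaf1b changed by −0.30 and −0.31 with DSHN, −0.73 and −0.71 with GW3965, and −0.66 and −0.43 with both.

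All 5 genes of nucleotide supply fell with GW3965 and 4 with DSHN. Ribonucleotide reductase subunits Rrm1 and Rrm2 fell by 0.17 and 0.39 with DSHN and by 0.40 and 0.69 with GW3965. Tyms, which makes thymidylate, fell by 0.19 and 0.44 (the former −0.17 and not called with the length correction), and Tk1, which salvages thymidine, by 0.51 with GW3965 (−0.10 with DSHN, not called). Another gene overlaps 20.7% of the exon bases of Tk1, and a pseudogene named after Tyms could share the reads of Tyms. In the combination Tyms, Tk1, Dut and Rrm2 were higher than with GW3965 alone, by 0.40, 0.56, 0.63 and 0.33. With the length correction these were 0.61, 0.41, 0.55 and 0.21 and all still passed the test, whereas Rrm1 did not pass in either case.

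Dut and Ung guard DNA against uracil: Dut, a dUTPase, keeps it out of the nucleotide pool, and Ung cuts it out of DNA. Dut (chr2:125089168-125100969) had 29.0, 25.1, 27.9, 31.7 and 33.3 CPM with DMSO, 28.3, 23.8, 24.3, 21.6 and 22.4 with DSHN, 15.2, 16.6, 17.7, 20.2 and 19.5 with GW3965, and 25.7, 26.4, 27.2, 32.6 and 27.2 with both. GW3965 libraries were below all others, and the combination overlapped DMSO. Dut fell by 0.28 with DSHN (SE 0.08, edgeR adjusted p = 0.0119) and by 0.71 with GW3965 (SE 0.09, edgeR adjusted p = 1.5e-07), and with both it had −0.08 (SE 0.08, edgeR adjusted p = 0.413). The rise over GW3965 alone (0.63, SE 0.09, edgeR adjusted p = 7.28e-07) was 0.55 with the length correction (edgeR adjusted p = 5.05e-06).

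Ung (chr5:114268427-114277382) had 11.5, 9.61, 10.8, 13.3 and 15.0 CPM with DMSO, 9.17, 7.95, 6.55, 6.77 and 5.84 with DSHN, 4.16, 4.69, 5.21, 7.52 and 6.71 with GW3965, and 7.92, 8.32, 7.84, 10.7 and 8.41 with both. All libraries of the single treatments were below all DMSO libraries, and all combination libraries were above all GW3965 libraries. Ung fell by 0.72 with DSHN (SE 0.14, edgeR adjusted p = 0.000271), by 1.07 with GW3965 (SE 0.14, edgeR adjusted p = 8.58e-07) and by 0.47 with both (SE 0.14, edgeR adjusted p = 0.00367). Its interaction was the highest of the 44, at 1.31 (SE 0.20, edgeR adjusted p = 8.56e-06; 1.251 with the length correction).

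**Figure D3:**
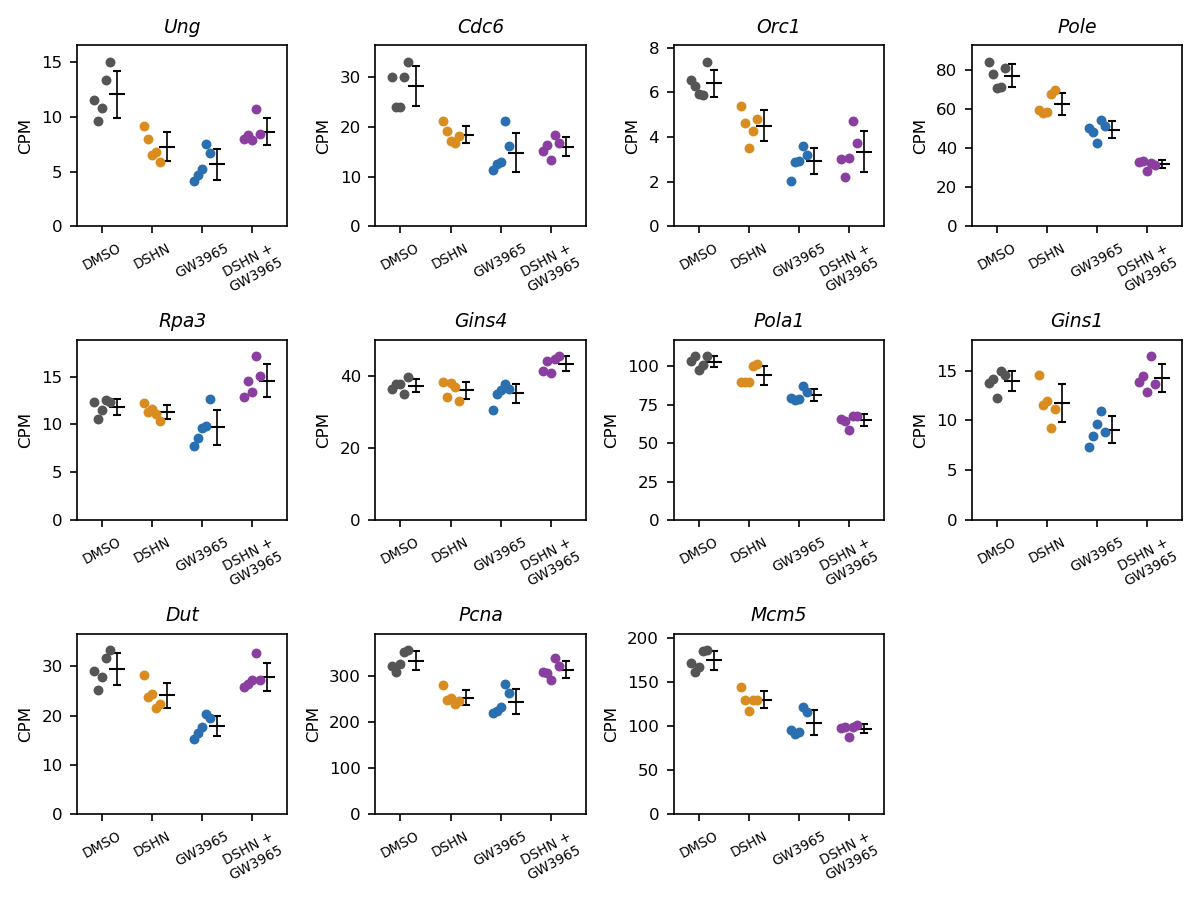
Levels (CPM, each vertical axis from 0) of the 11 genes followed in every library, by treatment. Points are the 5 libraries in replicate order and bars are the mean ± SD. Pole and Pola1 are lowest with both compounds, Gins4 and Rpa3 are highest with both, and Ung, Dut, Gins1 and Pcna are higher with both than in the mean of GW3965.

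The place of a gene in the combination went with its exon length. Over the 44 genes, whose exon sums run from 638 to 7701 bases, Spearman's rho between exon length and the difference between both compounds and GW3965 alone was −0.71, and −0.07 after the length correction (across genes, which are not replicates and share the same libraries). The correction takes out each library's trend with exon length over all genes tested, so the drop in rho follows largely from its construction. For GW3965 against DMSO rho was −0.22 and for DSHN against DMSO −0.09, both uncorrected. Of the 22 genes with exon sums up to 2807 bases 21 rose against GW3965 alone and 0 fell, and of the 22 from 3014 bases 6 rose and 3 fell. Over all genes tested 28.3% were called higher there and 29.5% lower, and shares for genes of like length were not taken. With the length correction 12 of the shorter genes rose and 0 fell, and 9 of the longer rose and 2 fell. Over all genes 23.8% were then called higher and 23.5% lower. The interaction was called positive for 22 of the 22 shorter and 19 of the 22 longer genes, beside 23.7% of all genes. With the correction these were 19 and 20, beside 21.5%.

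**Figure D4:**
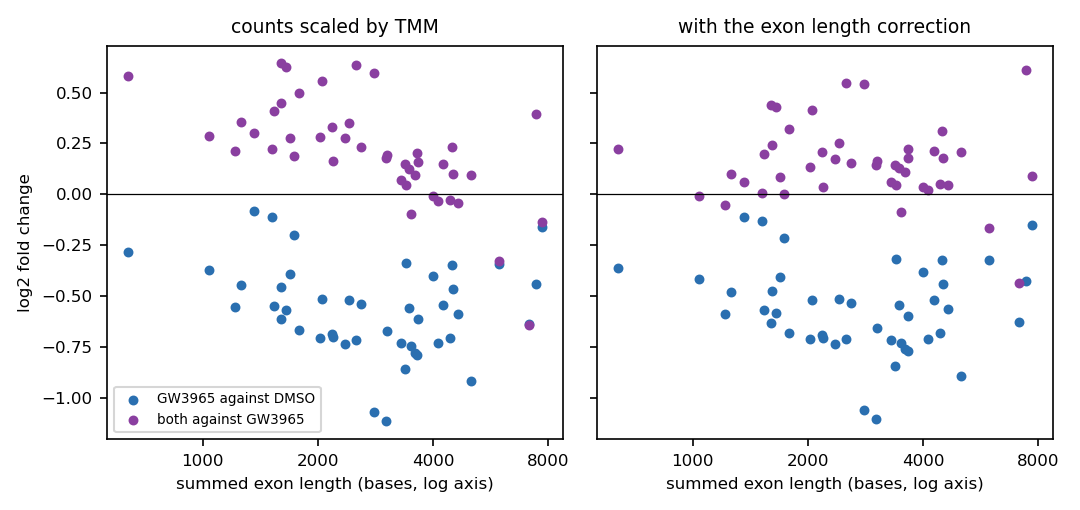
Log2 fold change of each of the 44 genes against its summed exon length (bases, log axis) for GW3965 against DMSO and for both compounds against GW3965, from counts scaled by TMM (left) and with the exon length correction (right). On the left the values against GW3965 slope downwards (rho −0.71), and on the right the slope is nearly gone (rho −0.07). The correction takes out each library's trend with exon length over all genes tested, so this drop follows largely from its construction.

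Within a treatment the 44 genes moved together between replicates. DMSO replicate 5 was above the DMSO mean in 44 of 44 genes (median deviation 0.114 on the log2 scale), and DMSO replicates 2 and 3 in 6 each. With GW3965, replicate 4 was above the group mean in 43 genes (median deviation 0.181) and replicate 1 in 3. DSHN replicate 1 was above in 41 and the combination's replicate 4 in 39. The 20 mitosis genes were above the group mean in 9 of 20 in DMSO replicate 5 and 19 of 20 in GW3965 replicate 4. Leaving out each library in turn kept the median of the 44 between −0.63 and −0.54 for GW3965 against DMSO and between −0.31 and −0.24 for DSHN.

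Other genes of the pathway and of the cell cycle were read from 4 further lists. Their counts stand beside 14.8% of all genes called lower and 14.1% higher with DSHN, and 23% and 23.6% with GW3965. Of 36 replication factors outside the 44, 35 could be tested. With DSHN 23 fell and 0 rose (0 also with DESeq2, limma voom and at an unadjusted p under 0.05), and with GW3965 26 fell and 1 rose, with medians of −0.23 and −0.50. Claspin (Clspn), Timeless, Wdhd1 and Uhrf1, which steady the fork or copy its chromatin marks, fell with GW3965 by 0.82, 0.98, 0.82 and 0.89. Pold4, the small subunit of polymerase delta, rose with GW3965 (0.46, SE 0.16), a call lost without DMSO replicate 3 or GW3965 replicate 1 or 5 (0.39 to 0.40). Of 12 other nucleotide genes 6 fell and 1 rose with DSHN, and 8 fell and 1 rose with GW3965. Umps and Impdh2, enzymes of pyrimidine and purine synthesis, fell with GW3965 by 0.40 and 0.21, while Tk2, the mitochondrial thymidine kinase, rose by 0.41 (SE 0.05).

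Of 31 genes that control entry into S phase, 18 fell and 2 rose with DSHN, and 24 fell and 5 rose with GW3965 (medians −0.22 and −0.34). Over all genes 14.8% fell and 14.1% rose with DSHN, and 23% and 23.6% with GW3965, so the shares that rose were below those of all genes. Ccne2, the cyclin E2 gene, fell by 0.62 with DSHN (SE 0.09), by 1.17 with GW3965 (SE 0.10) and by 1.52 with both (SE 0.10). Rbl1 (p107) fell with GW3965 by 0.65, and the repressor genes E2f7 and E2f8, themselves E2F targets, by 0.78 and 0.83. The 5 that rose with GW3965 were Rb1 (0.15), Rbl2 (0.15), Cdkn1b (0.34, SE 0.05), Cdkn2a (0.46) and Cdkn2b (0.91, SE 0.20). Rb1 and Rbl2 belong to the same pocket protein family as Rbl1, which fell, and the Cdkn genes encode CDK inhibitors. The other Cdkn genes of the list, named after their values were seen, fell with GW3965: Cdkn1a (−0.29), Cdkn1c (−0.47), Cdkn2c (−0.17) and Cdkn2d (−0.34). The call for Rbl2 was lost without DMSO replicate 4 or 5 (0.12) and with scaling by total counts (0.09). Calls were also lost for Cdkn2a without DMSO replicate 1 or 2 or GW3965 replicate 1 (0.39 to 0.41). The same holds for Cdkn1c without DMSO replicate 2 and for Cdkn2c without GW3965 replicate 1. Cdkn2a and Cdkn2b were low, at 1.76 and 1.63 CPM with DMSO. Cdkn1b, which encodes the CDK inhibitor p27, went from 50.1 CPM ± 4.03 with DMSO to 60.6 ± 3.68 with DSHN, 63.7 ± 3.92 with GW3965 and 71.5 ± 2.38 with both (SD, n = 5 each).

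Counts and medians of 20 mitosis genes stand beside those of the 44, and the difference between the lists was not tested. With DSHN 2 of 20 fell and 1 rose (median −0.04), beside 14.8% and 14.1% of all genes. With GW3965 19 fell and 0 rose (0 also with DESeq2, limma voom and at an unadjusted p under 0.05, with a median of −0.29), beside 23% and 23.6%. Bub1, Top2a, Prc1 and Kif11 fell with GW3965 by 0.49, 0.38, 0.37 and 0.37, and of these Bub1 (−0.17) and Top2a (−0.11) also fell with DSHN, the latter not without DMSO replicate 1 or DSHN replicate 2 or 3. The interaction was called for 7 mitosis genes as negative and for 6 as positive, with a median of 0.01, against 2 and 41 among the replication genes. Over all genes it was called negative for 26.5% and positive for 23.7%. With the length correction these counts were 5 and 5 for mitosis and 0 and 39 for replication, beside 22.6% and 21.5% of all genes.

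**Figure D5:**
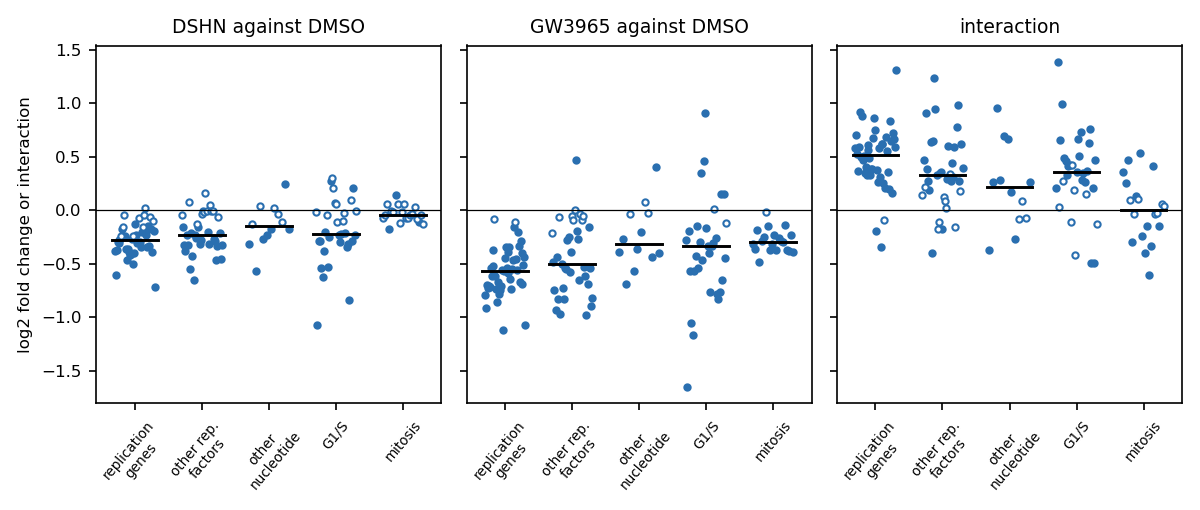
Log2 fold changes of the 44 replication genes and of 4 other lists, for DSHN against DMSO, GW3965 against DMSO and the interaction. Each point is a gene, filled where edgeR's adjusted p was under 0.05, and the black line is the list's median. With DSHN the replication median is −0.27 and the mitosis median −0.04, and in the interaction they are 0.52 and 0.01.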

How the data were processed

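RNA of 20 macrophage cultures was sequenced after a stranded Kapa mRNA preparation (labels' protocols). STAR alignments were counted per gene with featureCounts 2.0.0 on GRCm39 with RefSeq genes, per the file headers and the submitters' processing notes. The deposited values are raw counts per gene, and the summed exon length per gene (unit other) is the deposited length column of the same files. No strand option stands in the headers' commands, so reads of both strands were counted. Genes without a name in RefSeq (1569, 0.474% of counts) stayed in the fit.

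The edgeR quasi-likelihood test (version 4.0.16, R 4.3.3) was run on genes that filterByExpr kept, with TMM scaling and the 20 libraries in 1 model of 4 treatment means. Benjamini-Hochberg adjustment was made within each of 7 contrasts. The biological coefficient of variation was 0.0536, and replicate pairs differed beyond counting error (chi-square per degree of freedom 2.47 to 13.3 over 40 pairs). The length correction gave each library an offset from a spline (5 degrees of freedom) of log2 CPM over exon length. It was planned because earlier results of these data showed the trend. The members and all lists were likewise chosen with earlier results of these data known. Slopes and splines used log2 CPM with a prior count of 2.

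Alternatives were DESeq2 1.42.0 and its size factors, limma 3.58.1 (voom), scaling by totals, a fit without the filter, a higher minimum (100 counts, and 1 CPM in at least 5 libraries), a fit of the compared groups alone, a replicate block, the length correction with and without genomic span, and leaving out each library. Named genes were the 2 members with the largest change in each direction in each contrast against DMSO and against GW3965 alone (called, at least 5 CPM), with Pcna and Mcm5, and from each other list up to 4 with the smallest adjusted p with GW3965 plus called genes against the list's majority. Promoter windows are of GRCm38.p6 and gene coordinates of GRCm39, and they were never combined.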

Additional observations from a re-analysis of the deposited data

Results flagged for a closer look

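Levels of the 11 followed genes and of the summed list were checked in 48 groups of 5 libraries for a library far from the other 4, a check that chance meets in about 1 in 20 groups. It was met by 3, all with both compounds: Ung in replicate 4 (10.7 CPM, above the others), Dut in replicate 4 (32.6 CPM, above) and Mcm5 in replicate 3 (88.1 CPM, below). Replicate 4 was also the combination library with the highest sum of the 44 genes, and replicate 3 the one with the lowest.

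The DSHN effect differed with and without GW3965 by edgeR's interaction test for 43 of the 44 genes, 41 positive and 2 negative, the exception being Rfc1. Among the followed genes the interaction was 1.31 for Ung, 0.91 for Dut, 0.88 for Gins1, 0.75 for Pcna, 0.70 for Cdc6, 0.68 for Orc1, 0.65 for Rpa3, 0.35 for Gins4, 0.33 for Mcm5, −0.19 for Pola1 and −0.34 for Pole. With the length correction Gins4, Pola1 and Pole no longer passed the test.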

How the results depend on the processing

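For single genes, 6419 of 6707 values under an alternative kept their direction and side of the threshold, 204 lost the call, 43 gained it and 41 changed sign. Counts and medians for DSHN or GW3965 against DMSO moved little under every alternative run (34 lower became 28 to 38 and 42 became 41 to 43 when a library was left out). The counts that moved by over 1.5 times belong to comparisons with the combination. Genes called higher with both against DMSO went from 3 to 1 with the length correction and 0 with length and span. Genes called lower with both against GW3965 went from 3 to 1 with length and span. Genes called higher there stayed within 1.5 times, going from 27 to 21 and 18, of which 18 and 14 were among the 27. Genes called higher against DSHN went from 12 to 1 under both corrections, and to between 6 and 14 when a library was left out. A negative interaction was called for 2 genes, for 1 with total counts, for 0 under both corrections, and for 1 to 2 when a library was left out (1 without DSHN replicate 5 or combination replicate 3). The median interaction fell from 0.52 to 0.42 with the length correction and 0.41 with length and span. The E2F share was 56.8% in the whole window and 18.9% in the 100 bases before the start. Beyond the corrections' own construction, the cause was not tested.

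Values that changed sign were mostly small. For DSHN against DMSO, Rfc2 was −0.0027 with total counts, −0.0060 with the length correction and −0.0083 with length and span, and ranged from −0.0030 to 0.0456 when a library was left out (below 0 without DMSO replicate 1 or 2). Cdkn2b in that comparison ranged from −0.0764 to 0.1678 when a library was left out (below 0 without replicate 4 or 5 of DMSO or of DSHN). For both compounds against DMSO, the length correction and then length and span gave −0.1950 and −0.1800 for Gins1, −0.0535 and −0.0594 for Gins4, −0.1262 and −0.1221 for Rfc2, and −0.1433 and −0.1727 for Rpa3. Gins1 also ranged from −0.0248 to 0.0662 when a library was left out (below 0 without DMSO replicate 3 or combination replicate 4). Against GW3965 the same 2 corrections gave −0.0058 and −0.0285 for Gins2, 0.0893 and 0.1349 for Rfc1, −0.0515 and −0.0590 for Rfc4, and −0.0001 and −0.0210 for Rfc5, and Pola1 was 0.0706 with length and span. Against DSHN they gave −0.0268 and −0.0448 for Rfc5, −0.0111 and −0.0283 for Rpa2, and −0.0232 and −0.0541 for Rpa3. Length and span alone gave 0.0893 for Prim2, −0.0284 for Pold2, 0.0158 for Rfc1, −0.0000 for Rfc3 and −0.0156 for Tk1 in that comparison, and 0.1837 for the interaction of Pola1. Gins4 for GW3965 against DSHN ranged from −0.0677 to 0.0049 when a library was left out (above 0 without GW3965 replicate 1).

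Replicate numbers were not taken to pair the samples, since nothing in the labels ties them and not every same-number pair correlated above 0.1. Over 30 same-number pairs the correlation of deviations ran from −0.205 to 0.247 and exceeded 0.1 in 10. Over the 120 pairs of unlike number it ran from −0.24 to 0.24. Yet 13 of 20 libraries had a higher mean correlation with libraries of their own number than with those of any other number. This is a hint of pairing from the data and not from the design. With a replicate block, all counts of called genes in the list stayed within 1.5 times those given: 34 lower with DSHN and 43 with GW3965, 29 lower and 3 higher with both, and 29 higher and 3 lower with both against GW3965. The depth leaves the rarest members, Orc1 with 36 to 145 counts, the least precise.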
